A study of Mus musculus with 16 samples.

Results

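The genes of the cytosolic ribosomal proteins were followed in the mouse ventricle under pressure overload. Members were all genes of the count table whose symbol begins with Rpl or Rps and a digit, with Rplp0, Rplp1, Rplp2 and Rpsa, leaving out the Rps6 kinases, Rps19bp1 and symbols marked as pseudogenes. The rule uses names alone and took 87 of 24421 genes, 53 named Rpl and 34 named Rps. Of these, 81 had enough counts to be tested among 13522 tested genes.

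Ventricular tissue came from male C57BL/6N mice that were operated on at 9 to 10 weeks of age, and was taken 5 weeks later. WT mice were wildtype littermates. JP2CR mice were homozygous for a deletion of the codons for residues 563 to 568 of Jph2, which makes junctophilin-2, a protein that holds the T-tubule against the sarcoplasmic reticulum, resistant to the protease calpain. Each genotype had a sham operation or transverse aortic constriction (TAC), which raises the pressure the ventricle pumps against, so that the groups WT sham, WT TAC, JP2CR sham and JP2CR TAC had 4 libraries each. PolyA RNA was sequenced from strand-specific libraries. The labels state 4 mice per group and no pairing, but do not say which animal gave which library. Every p-value here reflects library-to-library spread alone, in which technical spread and spread between mice cannot be told apart.

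Each cytosolic ribosome joins a small subunit, whose proteins are named Rps and which reads the mRNA, to a large subunit, whose proteins are named Rpl and which forms the peptide bond. The P stalk of the large subunit, made of Rplp0, Rplp1 and Rplp2, receives the translation factors. Mammalian ribosomal protein mRNAs typically begin with a tract of C and T bases, the 5′ terminal oligopyrimidine (TOP) motif, through which mTORC1 controls their translation as a group, and growth of heart muscle under load is known to draw on new ribosomes.

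Most members with an annotated start, though not all, carry a run of C and T near it. Stretches near 9 RefSeq starts are shown because their genes are described in the results below, with long and short runs alike. Some of these stretches lie wholly after the start. Rpl10a, Rps26, Rpl37 and Rpl22 were called higher in WT TAC, Rpl9 and Rpl7l1 were called lower in JP2CR TAC, and Rpl22l1, Rps2 and Rpl3l were called lower in both. Capitals mark the longest unbroken run of C and T, on the coding strand and written 5′ to 3′ (build GRCm38.p6).
Rpl10a: aagcgctctgCCTTCTTTCCggtttccgcg
Rps26: aagccgccggaTCCTCTTTCgagtcttggc
Rpl37: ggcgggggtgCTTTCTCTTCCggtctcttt
Rpl9: acgaaagacgTTCTCTCTTTgccccatcta
Rpl22l1: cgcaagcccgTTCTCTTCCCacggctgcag
Rpl3l: tggtggggaggCCCCTTCCTaacctgcagg
Rps2: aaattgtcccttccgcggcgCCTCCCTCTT
Rpl22: atcagcgctgCTTCTggaatgttccagctc
Rpl7l1: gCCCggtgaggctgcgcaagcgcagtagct
The run of Rps2 ends at the edge of the stretch searched and may be longer. The longest runs of Rpl22 and Rpl7l1 were 5 and 3 bases. Counted from the RefSeq start, the marked runs began at base 41 in Rps2, 32 in Rpl3l, 30 in Rpl9 and 29 in Rpl37. They began at base 18 in Rpl10a, 4 in Rps26, 2 in Rpl22l1, -10 in Rpl22 and -19 in Rpl7l1. A run that begins far after the start is not a tract at the start. The Rpl22 stretch lies upstream of and outside the annotated gene, which begins at chr4:152325742, so it need not describe the start of the transcript measured here. The stretches lie at chr17:28328572-28328601 on the plus strand (Rpl10a), chr10:128626485-128626514 on the minus strand (Rps26), chr15:5116631-5116660 on the plus strand (Rpl37), chr5:65391383-65391412 on the minus strand (Rpl9), chr3:28805499-28805528 on the plus strand (Rpl22l1), chr17:24727846-24727875 on the plus strand (Rpl3l), chr17:24720083-24720112 on the plus strand (Rps2), chr4:152324416-152324445 on the plus strand (Rpl22) and chr17:46782647-46782676 on the minus strand (Rpl7l1).

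A run of at least 7 bases of C and T, in any order and on the coding strand alone, was searched from 20 bases before to 50 bases after the RefSeq start. Where a gene had several RefSeq starts, the one with the longest run was taken, for members and other genes alike. Of the 66 members with an entry, 54 (81.8%) held such a run, and their median longest run was 10 bases. Among 10203 other tested genes 4004 (39.2%) held one and the median was 6 bases, and among all 27025 genes with an entry 41.6% did. Annotated starts need not be the start used in these hearts, so a run here is a description of letters and not a mapped TOP motif. By call, 8 of 10 members called higher in WT TAC, 3 of 3 called lower and 39 of 48 not called held a run. In JP2CR, 8 of 10 members called lower and 42 of 51 not called did. The histogram of run lengths sets the members beside the other genes.

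**Figure D1:**
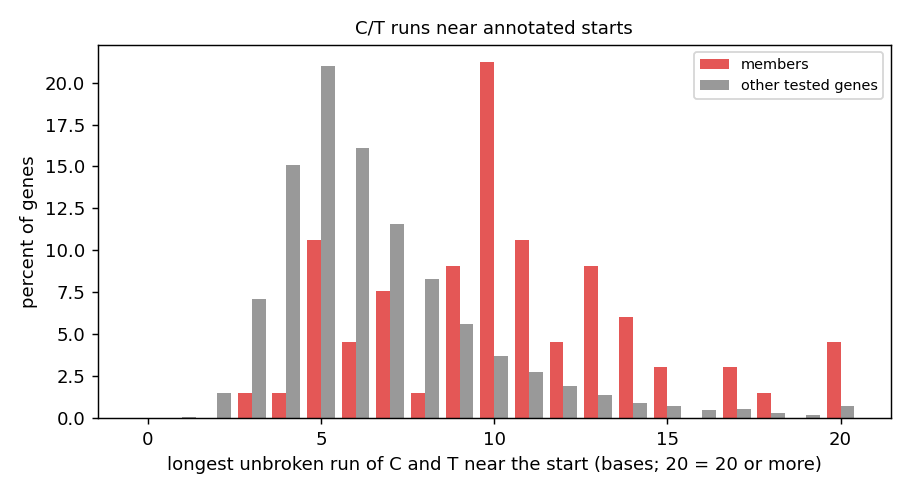
Percent of genes (vertical axis) by the length in bases of the longest unbroken run of C and T from 20 bases before to 50 bases after the annotated start (horizontal axis, with runs of 20 bases or more pooled), for 66 members in red and 10203 other tested genes in grey. The members' median is 10 bases and that of the other genes 6 bases.

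The 16 libraries held between 9966782 and 16609732 gene counts. Ventricular muscle markers were abundant in every library, summing to between 55000 and 88800 CPM (counts scaled to a common library size). All mice are labelled male, but Xist, the RNA that silences an X chromosome in female cells, was at 189 CPM in JP2CR sham 3, 196 CPM in JP2CR sham 4 and 140 CPM in JP2CR TAC 4, against at most 0.265 CPM in the other 13. JP2CR sham 3 and 4 had 0 counts of 4 Y-linked genes, and JP2CR TAC 4 had 118 CPM of them against 179 to 236 CPM in the other 13. JP2CR sham 4 also held 0.941 CPM of the atrial myosin light chain Myl7, against 299 to 802 CPM in the other JP2CR sham libraries. In 3 groups the third library lay between the first and second for nearly every gene in which these differed by at least 1 on the log2 scale (95.6% of 113 genes in WT sham, 96.2% of 287 in WT TAC and 95.5% of 331 in JP2CR TAC, against 59.1% of 66 in JP2CR sham). Results that rest on the 3 libraries with Xist, or on WT TAC 3 and JP2CR TAC 3 (the 2 intermediate libraries below), are given with and without them. WT sham 3, intermediate by the same measure, was left out only in the fits that drop 1 library at a time.

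The members together took a small and steady share of the mRNA. The share of gene counts was 1.47%, 1.51%, 1.48% and 1.51% in WT sham 1 to 4 and 1.58%, 1.51%, 1.56% and 1.52% in WT TAC 1 to 4. In JP2CR it was 1.52%, 1.51%, 1.66% and 1.61% in sham 1 to 4 and 1.57%, 1.48%, 1.53% and 1.54% in TAC 1 to 4. The group means were 1.5% ± 0.0193, 1.54% ± 0.0302, 1.57% ± 0.0736 and 1.53% ± 0.0377 (SD, n = 4) in the order WT sham, WT TAC, then JP2CR sham, JP2CR TAC. The groups overlapped in both genotypes, and the 2 highest shares belonged to JP2CR sham 3 and 4, which carry Xist. In bulk tissue, fewer cells of a type and less RNA per cell cannot be told apart.

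The mitochondrial ribosomal proteins, which belong to a separate ribosome, are given for comparison. Their share of counts was 0.437% and 0.440% in WT sham and JP2CR sham and 0.400% and 0.397% in WT TAC and JP2CR TAC. Of their 77 genes, 37 fell and 5 rose with TAC in WT (median log2 fold change -0.16), and 44 fell and 2 rose in JP2CR (median -0.19). Of all tested genes, 20.8% fell and 21.1% rose in WT, and 20.7% fell and 20.7% rose in JP2CR. The plot of shares by library puts both ribosomes side by side.

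**Figure D2:**
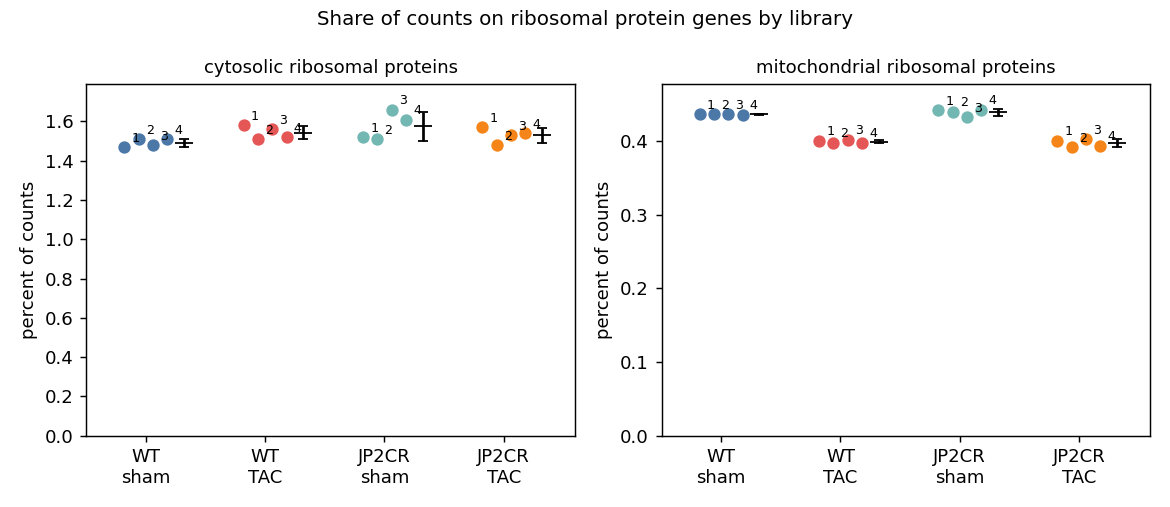
Percent of gene counts (vertical axes, from 0) on the cytosolic ribosomal protein genes (left) and on the mitochondrial ones (right) in each library of the 4 groups. Points are libraries marked with their replicate number, and bars are means ± SD (n = 4). The cytosolic share runs from 1.47% to 1.66% and overlaps between sham and TAC, whereas the mitochondrial share was lower in TAC.

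Member levels spanned a wide range. Per kilobase of the annotated principal transcript, the highest mean levels over all libraries were those of Rplp1 (688 CPM per kb), Rps29 (619), Rps15 (480) and Rplp0 (455). Among tested members the lowest were Rpl34 (1.36 CPM per kb), Rpl37rt (5.39) and Rps4l (16). The last pair are annotated as transcribed processed pseudogenes, whereas the other 85 members are protein-coding.

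Some core subunits were close to absent from the table. Rpl26 of the large subunit, the paralog Rpl10l and Rps27rt were listed at 0 counts in all 16 libraries, where a count of 0 allows up to 3 counts, or 0.185 to 0.314 CPM by library (counting error only). Rpl30 had 62 counts, Rps27 79 counts and the paralog Rpl39l 19 counts summed over 16 libraries, and these 6 members were not tested. Ribosomal protein genes have many near-identical processed copies elsewhere in the genome, and how reads matching several places were counted is not given in the sources used here. The level of any member is uncertain for that reason, and the part of such reads in the low values was not tested.

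TAC moved few of the large and small subunit genes in WT hearts, and by little. With edgeR's quasi-likelihood test and an adjusted p under 0.05 over all genes, 15 of the 81 members rose and 3 fell, where 21.1% of all tested genes rose and 20.8% fell. The share of members that rose was near that of all genes, and the share that fell was below it. The members' median log2 fold change was 0.03, against 0 for all genes, with 54 members above 0 and 27 below. The 4 TAC values lay wholly above the 4 sham values for 15 members and wholly below for 6, against 21% and 21% of all tested genes. By subunit, 10 of 49 large subunit genes rose and 2 fell, and 5 of 32 small subunit genes rose and 1 fell. Without WT TAC 1, which held 16 members at their highest level of all libraries, 9 members rose, against 19.9% of all tested genes. Without WT TAC 3 and JP2CR TAC 3 there were 7 that rose and 3 that fell, against 18.1% and 17.7%. Without WT sham 3 there were 11 and 3, against 18.8% and 19.3%, and the members' median was 0.01.

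In JP2CR hearts 1 of 81 members rose with TAC and 15 fell (edgeR's quasi-likelihood test), where 20.7% of all tested genes rose and 20.7% fell. The median was -0.07, against 0 for all genes, with 19 members above 0 and 62 below. No member's TAC values lay wholly above sham and 10 members' lay wholly below, against 16.8% and 17.3% of all tested genes. The large subunit had 1 that rose and 6 that fell of 49, and the small subunit 9 that fell of 32.

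These JP2CR counts rest on the libraries with Xist. Leaving those libraries out keeps JP2CR sham 1 and 2 and JP2CR TAC 1 to 3, and fewer libraries also make a call harder to reach. Without JP2CR sham 3, JP2CR sham 4 and JP2CR TAC 4, 6 members rose and 2 fell with TAC in JP2CR, against 18.5% and 17.4% of all tested genes. The median was then 0.02, and 47 members were above 0 and 34 below. The calls shared with the fit of all libraries were Rpl3, Rpl3l and Rps2, and those gained were Rpl12, Rps26, Rpl13a, Rpl39 and Rps13, all higher. The WT counts were then 19 and 3, against 22.8% and 23% of all tested genes. When 1 library at a time was left out, 3 rose and 9 fell in JP2CR without JP2CR sham 3, against 20.6% and 19.4% of all tested genes. The counts were 2 and 8 without JP2CR sham 4, against 19.3% and 18.1%. Without JP2CR TAC 4, 2 rose, against 20%. Without JP2CR TAC 2 or JP2CR TAC 3, 9 fell, against 17.9% and 17.7%. Scaling by library totals alone gave 5 that rose and 9 that fell in JP2CR, against 23.1% and 17.6% of all tested genes. In WT it gave 18 and 3, against 21.4% and 19.9%.

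**Figure D3:**
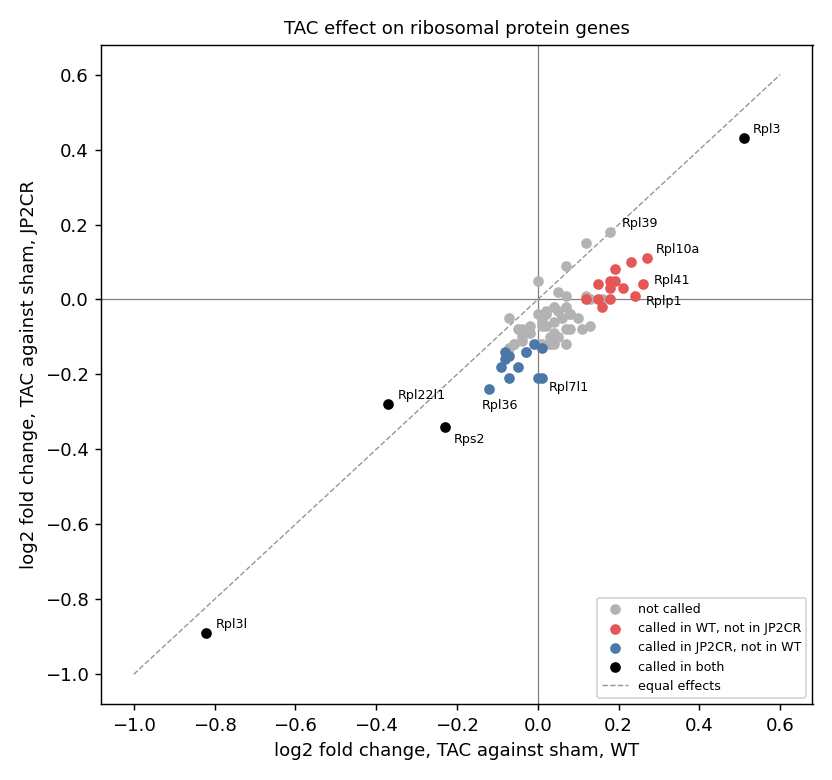
Log2 fold change of TAC against sham in WT (horizontal axis) and in JP2CR (vertical axis) for the 79 members with a mean of at least 10 CPM. Points are coloured by the call at an adjusted p under 0.05 (edgeR) and the dashed line marks equal effects; Rpl3l at -0.82 and -0.89 and Rpl3 at 0.51 and 0.43 lie far from the other members, which gather near 0.

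The largest change of any member was a fall of Rpl3l, which encodes the form of Rpl3 made in heart and skeletal muscle (chr17:24727820-24736143, plus strand). Rpl3l stood at 229, 256, 241 and 249 CPM in WT sham 1 to 4 and at 115, 160, 131 and 145 CPM in WT TAC 1 to 4. In JP2CR it stood at 252, 254, 237 and 325 CPM in sham 1 to 4 and at 139, 139, 134 and 164 CPM in TAC 1 to 4. All 8 TAC libraries were below all 8 sham libraries. Rpl3l fell by 0.82 ± 0.10 on the log2 scale in WT (log2 fold change ± SE, adjusted p = 5.1e-06) and by 0.89 ± 0.10 in JP2CR (adjusted p = 3.04e-06).

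Its counterpart Rpl3, which encodes the protein of the same place in the large subunit in most cells (chr15:80077791-80091868, minus strand), rose. Rpl3 stood at 169, 172, 175 and 172 CPM in WT sham 1 to 4 and at 279, 212, 248 and 244 CPM in WT TAC 1 to 4. In JP2CR it stood at 158, 159, 225 and 154 CPM in sham 1 to 4 and at 243, 234, 241 and 220 CPM in TAC 1 to 4. The WT groups did not overlap, and in JP2CR a single sham library, JP2CR sham 3 at 225 CPM, reached into the TAC range. Rpl3 rose by 0.51 ± 0.10 in WT (adjusted p = 0.000471) and by 0.43 ± 0.10 in JP2CR (adjusted p = 0.00233), and by 0.60 ± 0.08 in JP2CR without the 3 libraries with Xist (adjusted p = 2.34e-05). The TAC effect did not differ detectably between genotypes: JP2CR minus WT was -0.09 ± 0.14 for Rpl3 (adjusted p = 0.892) and -0.07 ± 0.14 for Rpl3l (adjusted p = 0.921).

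The order of the pair turned over in the deposited counts. Per transcript length, Rpl3 over Rpl3l was 0.719 ± 0.0306 (SD, n = 4) in WT sham and 1.86 ± 0.468 in WT TAC, and 0.681 ± 0.203 in JP2CR sham and 1.68 ± 0.208 in JP2CR TAC. Sham ratios ran from 0.483 to 0.965 and TAC ratios from 1.35 to 2.47. By these counts, every sham library held less Rpl3 than Rpl3l and every TAC library more. Which gene is the more abundant also depends on how reads matching several places were counted, which is not known. The sum of both genes was 415 ± 12.7 and 441 ± 35.1 CPM in the sham groups of WT and JP2CR, and 383 ± 9.99 and 379 ± 5.24 CPM in their TAC groups. In the authors' deposited table, Rpl3 has a log2 fold change of 0.51 in WT (adjusted p = 9.19e-12) and 0.42 in JP2CR (no adjusted p), and Rpl3l of -0.81 (adjusted p = 3.2e-21) and -0.86 (adjusted p = 6.37e-14).

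**Figure D4:**
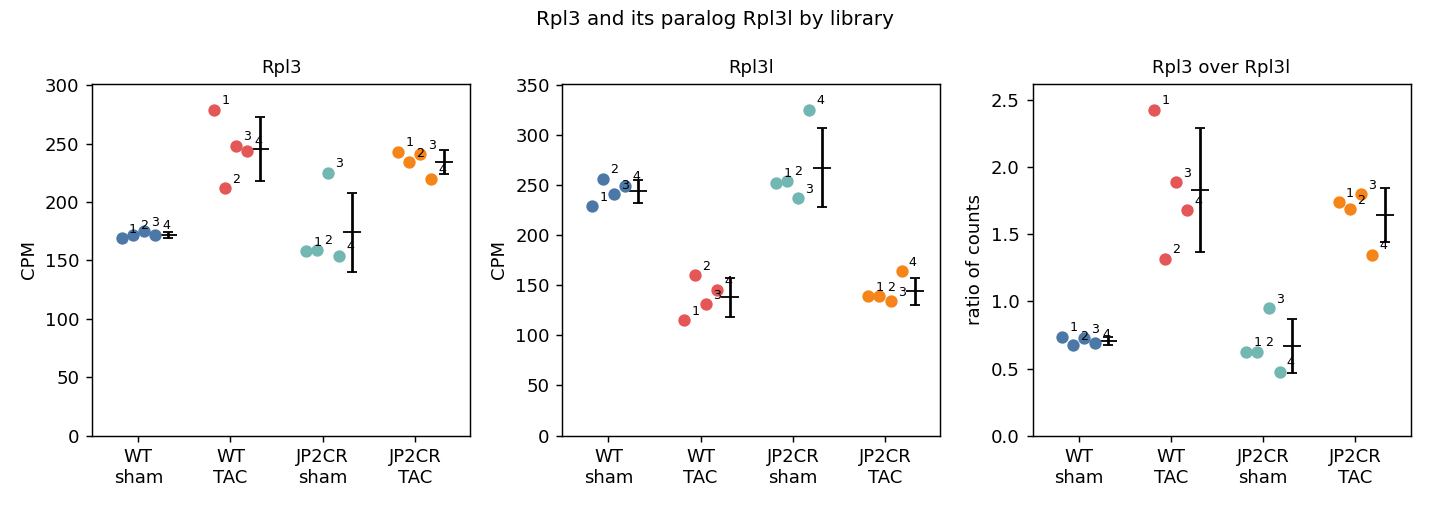
Levels in CPM of Rpl3 (left) and Rpl3l (middle) and the ratio of their counts (right), each from 0 on the vertical axis, in every library of the 4 groups. Points are libraries marked with their replicate number, and bars are means ± SD (n = 4). Rpl3l is lower and the ratio higher in all 8 TAC libraries, and for Rpl3 only JP2CR sham 3 reaches the TAC range.

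Markers of other tissues and cells moved with TAC beside this pair, and their part in it was not tested. The share of all tested genes was 21.1% that rose and 20.8% that fell in WT, and 20.7% and 20.7% in JP2CR. In WT, 7 of 8 atrial markers fell and 1, Nppa, rose, and 7 of 8 adipocyte markers fell. The adipocyte sums were 383 to 556 CPM in WT sham and 347 to 415 CPM in WT TAC, where Ucp1 and Retn were at 0 in all 4 libraries. In JP2CR 3 of 8 atrial and 0 of 8 adipocyte markers fell, with adipocyte sums of 344 to 598 CPM in sham and 470 to 554 CPM in TAC. Atrial sums, which Nppa leads, were 3260 to 4760, 3960 to 7600, 329 to 6190 and 4230 to 5290 CPM in the same order of groups. Macrophage markers rose in 6 of 8 cases in each genotype, and 1 fell in WT, with sums of 234 to 260 and 308 to 326 CPM in WT and of 241 to 289 and 336 to 389 CPM in JP2CR. Fibroblast sums were 1760 to 1820 and 2230 to 3050 CPM in WT and 1480 to 1940 and 2350 to 2860 CPM in JP2CR, and 3 of 8 markers rose in each genotype while 1 fell in WT and 2 in JP2CR. The 4 tested lymphocyte markers were not called in WT, with sums of 6.89 to 7.81 CPM in sham and 4.58 to 12.5 CPM in TAC, and rose in JP2CR, with sums of 2.83 to 6.38 and 7.75 to 80.9 CPM. The tested erythroid marker rose in JP2CR and was not called in WT, with sums of 10.2 to 16.9 and 12.1 to 28.6 CPM in WT and of 11 to 22.2 and 16.6 to 43.6 CPM in JP2CR. Of 8 ventricular muscle markers 2 rose and 4 fell in WT and 2 rose and 5 fell in JP2CR, with sums of 72300 to 77900 and 55000 to 61400 CPM in WT sham and TAC and of 68800 to 88800 and 56900 to 61300 CPM in JP2CR sham and TAC. The highest sums, 83500 and 88800 CPM, were those of JP2CR sham 3 and 4. JP2CR sham 4, with the highest Rpl3l of all, had Myl7 near 0, and the fall of Rpl3l in JP2CR had a log2 fold change of -0.88 ± 0.09 without the 3 libraries with Xist.

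The second pair with a change was Rpl22 and its paralog Rpl22l1, RNA-binding proteins of the large subunit. Rpl22l1 stood at 26.5, 25.1, 29.2 and 25.9 CPM in WT sham 1 to 4 and at 22.3, 20.2, 20.8 and 19.3 CPM in WT TAC 1 to 4. In JP2CR it stood at 25.4, 25.7, 30.3 and 25.3 CPM in sham 1 to 4 and at 23.4, 22.2, 22.1 and 20.4 CPM in TAC 1 to 4. Sham and TAC did not overlap in either genotype. Rpl22l1 fell by 0.37 ± 0.07 in WT (adjusted p = 0.000694) and by 0.28 ± 0.07 in JP2CR (adjusted p = 0.00579). Without the 3 libraries with Xist the JP2CR log2 fold change was -0.18 ± 0.08 and no longer called (adjusted p = 0.12).

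Rpl22 itself went the other way in WT. It stood at 141, 130, 137 and 131 CPM in WT sham 1 to 4 and at 158, 145, 154 and 154 CPM in WT TAC 1 to 4, with no overlap, and rose by 0.18 ± 0.04 (adjusted p = 0.00256). Its JP2CR levels were 134, 129, 132 and 137 CPM in sham 1 to 4 and 139, 139, 140 and 134 CPM in TAC 1 to 4, a log2 fold change of 0.05 ± 0.04 (adjusted p = 0.337). The difference of the TAC effects was -0.13 ± 0.06 (adjusted p = 0.492). Rpl22l1 over Rpl22 counts was 0.198 ± 0.0112, 0.135 ± 0.00706, 0.201 ± 0.0203 and 0.159 ± 0.00703 (SD, n = 4) in the groups in that order.

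The other paralogs changed by less. Rpl7l1, related to Rpl7 of the large subunit, was not called in WT (0.00 ± 0.05, adjusted p = 0.954) and fell by 0.21 ± 0.05 in JP2CR (adjusted p = 0.00501). Its JP2CR values were 51.4, 51.5, 56 and 58.8 CPM in sham 1 to 4 and 48.7, 46.9, 44.6 and 48.3 CPM in TAC 1 to 4, and the highest pair were the sham libraries with Xist. Without the 3 libraries with Xist the change was -0.14 ± 0.06 (adjusted p = 0.102). Rpl7 had log2 fold changes of 0.02 ± 0.05 in WT and -0.07 ± 0.05 in JP2CR, neither called.

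Rps27l, a small subunit paralog that p53 is known to induce, had 0.07 ± 0.07 in WT and 0.09 ± 0.07 in JP2CR and was not called. Rpl36al, a paralog of Rpl36a, had 0.04 ± 0.06 and -0.09 ± 0.06, and Rps4l, a copy related to Rps4x, had 0.04 ± 0.18 and -0.02 ± 0.18, all not called. Rpl36a had 0.16 ± 0.07 and 0.00 ± 0.07. Of the genes whose paralogs Rpl39l and Rpl10l were not tested, Rpl39 had 0.18 ± 0.08 and 0.18 ± 0.08, and Rpl10 had 0.05 ± 0.06 and 0.02 ± 0.06. Rpl36a, Rpl39 and Rpl10 were not called. Leaving out the 3 libraries with Xist, Rpl39 was called higher in WT (0.18 ± 0.06, adjusted p = 0.0237) and in JP2CR (0.36 ± 0.08, adjusted p = 0.00193), and Rpl36a in WT (0.16 ± 0.06, adjusted p = 0.0461). Rps4x, an X-linked gene of the small subunit, fell in JP2CR by 0.14 ± 0.05 (adjusted p = 0.0215) and was at -0.08 ± 0.05 in WT (adjusted p = 0.199). Its JP2CR call was lost without JP2CR sham 3, JP2CR sham 4 or JP2CR TAC 3.

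In the P stalk 1 of 3 genes was called. Rplp1 stood at 291, 329, 287 and 342 CPM in WT sham 1 to 4 and at 401, 347, 394 and 336 CPM in WT TAC 1 to 4. The groups overlapped, since WT TAC 4 was below WT sham 4. Rplp1 rose by 0.24 ± 0.08 in WT (adjusted p = 0.0215), a call lost without any one of WT sham 1, WT sham 3, WT TAC 1 or WT TAC 3 (highest adjusted p = 0.0753) and without the 2 intermediate libraries (adjusted p = 0.0819), and had 0.01 ± 0.08 in JP2CR. Rplp0, the base of the stalk, had 0.03 ± 0.06 in WT and -0.12 ± 0.06 in JP2CR, and Rplp2 had -0.06 ± 0.07 and -0.12 ± 0.07. Neither was called. Rpsa, a small subunit protein also known as a laminin receptor, was not called either, at 0.07 ± 0.06 and -0.12 ± 0.06.

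Besides Rpl3, Rpl22 and Rplp1, the large subunit genes called higher in WT included Rpl10a, Rpl41, Rpl13a, Rpl12, Rpl37 and Rpl4. Rpl10a, a protein of the flexible L1 stalk near the exit site, stood at 113, 113, 112 and 119 CPM in WT sham 1 to 4 and at 142, 125, 145 and 141 CPM in WT TAC 1 to 4. All WT TAC values were above all WT sham values, and Rpl10a rose by 0.27 ± 0.05 (adjusted p = 0.000415). Its JP2CR levels were 118, 117, 121 and 128 CPM in sham 1 to 4 and 131, 123, 136 and 130 CPM in TAC 1 to 4, which overlap, with a log2 fold change of 0.11 ± 0.05 (adjusted p = 0.113). Rpl37, a small zinc-binding protein, rose in WT by 0.18 ± 0.05 (adjusted p = 0.0127), from 99.3 to 110 CPM over the sham libraries to 111 to 123 CPM over the TAC libraries, and was at an adjusted p of 0.0524 without WT TAC 3 and JP2CR TAC 3. Rpl4, of the peptide exit tunnel, rose by 0.12 ± 0.04 (adjusted p = 0.0201), from 490 to 496 CPM to 529 to 549 CPM, and was at an adjusted p of 0.055 without WT TAC 4 and of 0.053 without WT TAC 3 and JP2CR TAC 3. Rpl41, the shortest ribosomal protein, rose by 0.26 ± 0.08 (adjusted p = 0.016), and Rpl13a and Rpl12 rose by 0.19 and 0.18.

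In the small subunit, the genes that rose in WT included Rps26, Rps12, Rps28 and Rps27a. Rps26, at the mRNA exit channel, stood at 91.9, 96.3, 98 and 97.8 CPM in WT sham 1 to 4 and at 122, 101, 114 and 113 CPM in WT TAC 1 to 4, with no overlap, and rose by 0.23 ± 0.06 (adjusted p = 0.00495). Its JP2CR levels were 97, 93.5, 106 and 108 CPM in sham 1 to 4 and 112, 111, 108 and 105 CPM in TAC 1 to 4, a log2 fold change of 0.10 ± 0.06 (adjusted p = 0.169). Without the 3 libraries with Xist, Rps26 rose in JP2CR by 0.21 ± 0.07 (adjusted p = 0.0244) and in WT by 0.22 ± 0.05 (adjusted p = 0.00232). Rps27a, made as a fusion with ubiquitin, rose by 0.15 ± 0.06 (adjusted p = 0.0357), a call lost when any one of WT sham 2, WT sham 4 or the 4 WT TAC libraries was left out, and without the 2 intermediate libraries (adjusted p = 0.0693). Rps12 rose by 0.19 and Rps28 by 0.21.

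Rps2, of the mRNA entry channel, was the small subunit gene that fell in both genotypes. It stood at 442, 465, 438 and 455 CPM in WT sham 1 to 4 and at 380, 400, 381 and 371 CPM in WT TAC 1 to 4. In JP2CR it stood at 457, 451, 524 and 569 CPM in sham 1 to 4 and at 418, 376, 380 and 404 CPM in TAC 1 to 4. Neither genotype's groups overlapped, and the highest values were again JP2CR sham 3 and 4. Rps2 fell by 0.23 ± 0.06 in WT (adjusted p = 0.00735) and by 0.34 ± 0.06 in JP2CR (adjusted p = 0.0004). Without the 3 libraries with Xist it fell by 0.21 ± 0.05 in JP2CR (adjusted p = 0.00651).

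The members called lower in JP2CR and not in WT included Rps29, Rps21, Rps18, Rps4x, Rps3 and Rps15a of the small subunit and Rpl7l1, Rpl9, Rpl36 and Rpl23a of the large one. Rps29, a small zinc-binding protein, stood at 244, 248, 283 and 288 CPM in JP2CR sham 1 to 4 and at 227, 217, 237 and 236 CPM in JP2CR TAC 1 to 4, and fell by 0.21 ± 0.05 (adjusted p = 0.00459). In WT it stood at 231, 242, 241 and 249 CPM in sham 1 to 4 and at 230, 227, 237 and 225 CPM in TAC 1 to 4 (-0.07 ± 0.05, adjusted p = 0.347). Rpl9, at the base of the stalk region, stood at 239, 244, 278 and 262 CPM in JP2CR sham 1 to 4 and at 229, 224, 221 and 229 CPM in JP2CR TAC 1 to 4, and fell by 0.18 ± 0.05 (adjusted p = 0.00654). Its WT levels were 240, 236, 248 and 237 CPM in sham 1 to 4 and 231, 215, 228 and 227 CPM in TAC 1 to 4, which do not overlap (-0.09 ± 0.05, adjusted p = 0.139). For both genes JP2CR sham 3 and 4 stood highest, and without the 3 libraries with Xist neither was called (Rps29 -0.11 ± 0.05, adjusted p = 0.105; Rpl9 -0.10 ± 0.05, adjusted p = 0.129, beside -0.10 ± 0.04 in WT, adjusted p = 0.0536). Of the others named here, Rps18 fell by 0.13 and Rpl36 by 0.24. Without these libraries the members called lower in JP2CR were Rpl3l and Rps2.

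The test of the difference between the TAC effects, which the counts per genotype do not give, called no member in either direction with edgeR, where 0.0887% of all tested genes were called higher and 0.0296% lower in JP2CR. DESeq2 also called no member, and 0.673% and 0.303% of all tested genes. At an unadjusted p under 0.05 there were 12 of 81 members, all lower in JP2CR, against 4.84% of all tested genes in that direction and 10.3% in either. The difference was below 0 for 74 of 81 members, with a median of -0.11 against -0.01 for all genes. Rpl7l1 had a difference of -0.20 ± 0.08 (adjusted p = 0.333). Without the 3 libraries with Xist 1 member was at an unadjusted p under 0.05, and the median was -0.01 with 49 members below 0.

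The genotypes were also compared within each operation, with the same sham libraries as above. JP2CR sham against WT sham called no member with edgeR (0% of all tested genes higher and 0.0961% lower) or with DESeq2 (0.0961% and 0.288%), with 13 members at an unadjusted p under 0.05 against 7.97% of all tested genes. Of 81 members 74 were above 0, with a median of 0.07, and without the 3 libraries with Xist 32 were above 0 and 49 below, with a median of -0.01. JP2CR TAC against WT TAC called no member either with edgeR (0.362% of all tested genes higher and 0.288% lower) or with DESeq2 (0.954% and 0.74%), with 2 at an unadjusted p under 0.05 against 12.9%, and a median of -0.03. Rpl22 in TAC had -0.14 ± 0.04 (adjusted p = 0.134).

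With group means removed, the median correlation between 2 of the 79 members above 10 CPM was 0.53 over 16 libraries, which share depth and scaling, and 0.26 over the 13 libraries without Xist. Beside it, the median was 0 among 8982 other tested genes and 0.07 among 77 mitochondrial ribosomal protein genes (0 and 0.02 over 13 libraries). Over 16 libraries 68 of 79 had a correlation of at least 0.5 with the mean of the others (median 0.72). The lowest were Rps4l (-0.31), Rpl3l (-0.05), Rps27l (0.13) and Rpl22 (0.29). Of the 81 tested members, 53 (65.4%) had their highest level of all libraries in JP2CR sham 3 or 4, against 22% of all tested genes. The median member stood 0.13 (log2) above its own mean in JP2CR sham 3 and 0.10 in JP2CR sham 4, which the map of deviations shows as 2 adjacent columns. These libraries also held the highest sums of ventricular muscle markers, 83500 and 88800 CPM, whose part in the members' levels was not tested.

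**Figure D5:**
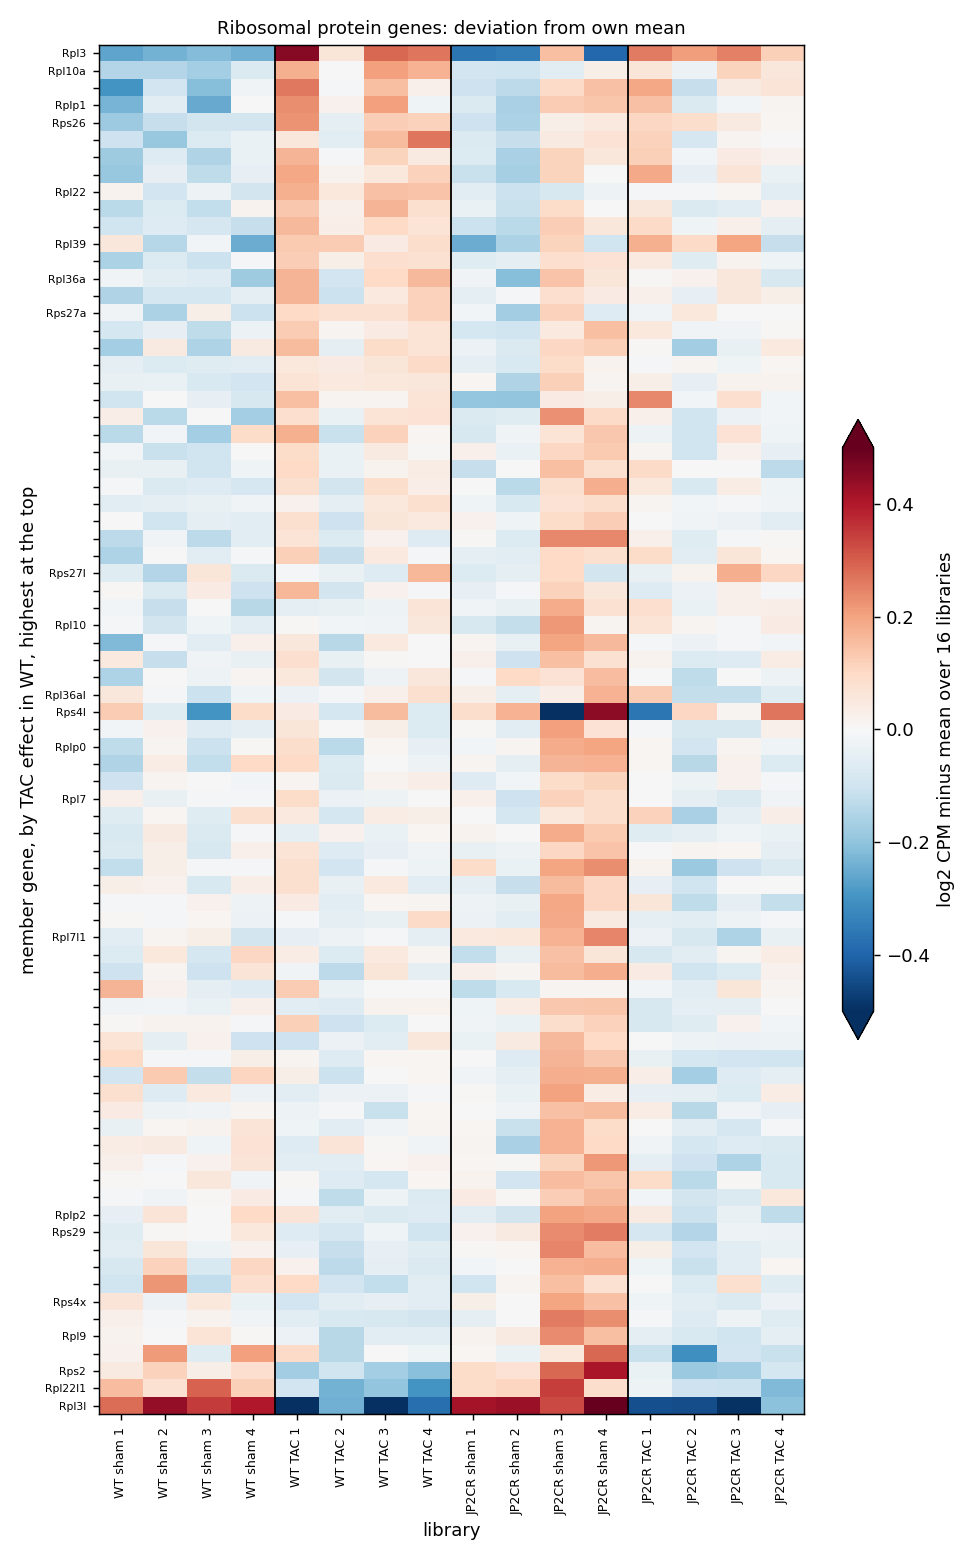
Deviation of each member's log2 CPM from its own mean over 16 libraries (colour, cut at 0.5 on either side), for the 79 members with a mean of at least 10 CPM (rows, ordered by the TAC effect in WT, with paralogs, their parents, the P stalk and Rps27a, Rps2, Rps26, Rps29, Rpl9 and Rpl10a named) in each library (columns, with lines between groups). JP2CR sham 3 and 4 are raised for most members, and Rpl3 and Rpl3l at the top and bottom show the TAC difference.

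Genes around the ribosome gave a frame for the members, from lists of named genes. Beside each list stand all tested genes, of which 21.1% rose and 20.8% fell in WT, and 20.7% and 20.7% in JP2CR. Of ribosomal proteins outside the naming rule, Rack1 (listed as Gnb2l1) rose in WT by 0.11 ± 0.04 (adjusted p = 0.0498), and Fau had 0.14 ± 0.07, not called. In JP2CR they had 0.01 ± 0.04 and 0.02 ± 0.07, neither called. Among 20 translation factors, which share the TOP class with the members, 2 rose and 3 fell in WT and 7 rose and 2 fell in JP2CR. Pabpc1, which binds the polyA tail, rose by 0.40 ± 0.06 and 0.39 ± 0.06, and the initiation factor gene Eif3h by 0.29 ± 0.04 and 0.26 ± 0.04. Eef1d, of the elongation factor complex, fell by 0.17 ± 0.05 and 0.26 ± 0.05. Naca, which guards new chains at the exit tunnel, fell in JP2CR by 0.28 ± 0.06 and was at -0.09 ± 0.06 in WT.

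Of 50 ribosome biogenesis genes 22 (44%) rose and 1 fell in WT (median 0.16), and 17 (34%) rose and 4 fell in JP2CR (median 0.14), with 27 and 29 not called, where 21.1% and 20.7% of all tested genes rose, beside 15 and 3, and 1 and 15, of the 81 members. The lists were not tested against each other. Rrp12, an export factor of pre-ribosomes, rose by 1.30 ± 0.08 in WT (adjusted p = 3.83e-09) and by 1.11 ± 0.08 in JP2CR (adjusted p = 4.45e-08). Gtpbp4, a GTPase of large subunit assembly, rose by 0.49 ± 0.06 and 0.41 ± 0.06, Tsr1, of small subunit maturation, by 0.50 ± 0.07 and 0.35 ± 0.07, and the nucleolar helicase gene Ddx21 by 0.39 ± 0.05 and 0.22 ± 0.05.

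Of 15 genes of RNA polymerase I, which makes the ribosomal RNA, 1 rose and 2 fell in WT and 1 fell in JP2CR, and its largest subunit Polr1a fell by 0.36 ± 0.09 and 0.51 ± 0.09. Of 17 genes of mTORC1 and TOP mRNA control, 6 rose and 2 fell in WT and 3 rose and 4 fell in JP2CR. Myc, a driver of ribosomal gene transcription, rose by 1.43 ± 0.14 and 1.6 ± 0.14. Of the translation repressors under mTORC1, Eif4ebp1 rose by 0.49 ± 0.08 and 0.38 ± 0.08 and Eif4ebp2 fell by 0.29 ± 0.08 and 0.40 ± 0.08. Of 10 genes of the p53 response, which free Rpl5 and Rpl11 can trigger, 4 rose in each genotype, among them Cdkn1a (1.06 ± 0.16 and 1.15 ± 0.16). Rpl5 and Rpl11 themselves were not called in either genotype. These lists are short, and 21.1% of all tested genes rose and 20.8% fell in WT, and 20.7% and 20.7% in JP2CR.

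Ribosomal proteins are short, and other short genes are given beside them. Of 594 other tested protein-coding genes with a transcript of at most 1000 bases, 93 rose and 181 fell in WT (median -0.08) and 88 rose and 178 fell in JP2CR (median -0.09). That is 15.7% and 30.5% in WT and 14.8% and 30% in JP2CR. Over all tested genes it was 21.1% and 20.8% in WT and 20.7% and 20.7% in JP2CR. The members' medians were 0.03 and -0.07, over all tested members. Some of these have transcripts longer than 1000 bases, such as Rps15a (5179 bases) and Rps20 (3706 bases), so the sets are not matched by length.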

How the data were processed

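Counts per gene from polyA RNA of 16 ventricle libraries were deposited by the authors as whole numbers. The submitters' processing notes name STAR 2.5.0b, Cufflinks 2.2.1, bedtools 2.17.0, DESeq2 1.6.3, Picard 1.128 and FastQC 1.0.0 with build mm10, and which of them counted reads is not given in the sources used here. The authors' deposited table also holds log2 fold changes and adjusted p-values of their own.

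All genes were tested with edgeR 4.0.16 (R 4.3.3, limma 3.58.1): filterByExpr, TMM, quasi-likelihood F test, 1 mean per group over 16 libraries, Benjamini-Hochberg over 13522 genes, called at an adjusted p under 0.05. Depth was 9966782 to 16609732 counts per library. CPM are TMM-scaled, and log2 CPM used a prior count of 2. The fits were also run on simulated counts with planted changes larger than most of those seen for the members. That run does not bear on the smaller changes, and its outcome is not given here. DESeq2 1.42.0, other scaling, other filters, a replicate block and leaving out libraries were alternatives.

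Named were paralogs and their parents, the P stalk, Rpsa and Rps27a, up to 6 called members per direction and comparison by smallest p, the most and least abundant members, and up to 4 genes per list. Other members are listed where a count is spelled out, chosen after their values were seen. Members and lists were chosen with earlier results of these data known. Positions and transcript lengths came from GENCODE M21 (the best-ranked principal transcript, the longest where several tied), a length measure chosen after seeing that lengths over all exons were inflated. All 87 members matched by symbol, and sequences came from RefSeq. The deposited comparison of the sham groups was not used. Some members that the naming rule covers are not reported here by name. Figures were drawn with matplotlib 3.10.9.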

Additional observations from a re-analysis of the deposited data

Results flagged for a closer look

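Groups of 4 libraries were tested for the named members, the members' share of counts and the ratio of Rpl3 to Rpl3l. Of 120 such groups, 6 held a library far from the other 3 (past Dixon's 95% critical value), and chance flags about 1 group in 20. In JP2CR sham 3 Rpl3 was at 225 CPM against 154 to 159 CPM, and Rpl22l1 at 30.3 CPM against 25.3 to 25.7 CPM. In JP2CR TAC 4 Rpl3l was at 164 CPM against 134 to 139 CPM, and Rpl22 at 134 CPM against 139 to 140 CPM. Both libraries carry Xist. Rpl10a was at 119 CPM in WT sham 4 against 112 to 113 CPM, and Rplp2 at 181 CPM in WT TAC 1 against 165 to 167 CPM.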

How the results depend on the processing

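With scaling by library totals 5 members rose and 9 fell with TAC in JP2CR, against 23.1% and 17.6% of all tested genes. Without the low-count filter, with only the groups compared, or without WT TAC 3 and JP2CR TAC 3, 9 fell, against 13.4%, 17.3% and 17%. Without the 3 libraries with Xist 6 rose and 2 fell, against 18.5% and 17.4%. Without all 5 libraries 3 rose and 2 fell, against 14.8% and 13.9%. In WT 7 rose without WT TAC 3 and JP2CR TAC 3, against 18.1%. The median difference between TAC effects was -0.01 without the 3 libraries and without all 5.

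Leaving out each library gave 9 to 18 that rose and 3 to 3 that fell in WT (9 without WT TAC 1), and 1 to 3 and 8 to 22 in JP2CR (8 without JP2CR sham 4, 9 without JP2CR sham 3, JP2CR TAC 2 or JP2CR TAC 3). The highest counts, 18 that rose in WT and 22 that fell in JP2CR, came without JP2CR sham 2, against 21.1% and 19.5% of all tested genes. The medians were 0.01 to 0.05 in WT, -0.10 to -0.03 in JP2CR and -0.14 to -0.07 for the difference. With group means removed, 1 of 16 same-numbered pairs of libraries correlated above 0.1. Differently numbered pairs were not compared, so pairing by replicate number was not settled. With the replicate number as a block, 15 rose and 3 fell in WT, against 20.5% and 20.3% of all tested genes. In JP2CR it was 1 and 16, against 20.5% and 20.1%. Of 560 alternative values for 20 results on single members, 528 kept direction and call, 32 lost the call and 0 reversed. These 20 were calls of named members, many picked by smallest p, and some alternatives dropped a library outside the comparison. The tally therefore does not measure how firm the members' calls were. Over all called members, dropping the 3 Xist-bearing libraries kept 18 of 18 calls in WT and 3 of 16 in JP2CR. Dropping the 2 intermediate ones kept 10 of 18 and 10 of 16. The correlations between members over 13 libraries were added after the data were seen. Changes under about 0.1 (log2) lie near the median SE of 0.06.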
